A study of Mus musculus with 2 samples.

Results

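The enzymes that build heme and break it down were followed by 9 genes of mouse liver: 7 enzymes of heme synthesis (Alas1, Alad, Uros, Urod, Cpox, Ppox and Fech), heme oxygenase 1 (Hmox1) and biliverdin reductase B (Blvrb). These are not all steps of the path: a further synthesis enzyme, which acts between Alad and Uros, was not analysed here. The genes were chosen by name, as all probe sets whose annotation holds exactly 1 gene symbol and whose symbol is 1 of these 9. This gave 20 of the 45101 probe sets of the array and 9 of the 18194 genes that a probe set with 1 symbol names. A probe set is a group of short probes that together read 1 transcript, or several transcripts where its name ends in _s_at or _x_at.

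ICR mice, an outbred stock, were 9 weeks old when they were put on the basal diet CRF-1 (control) or on CRF-1 with 500 ppm of the plant sapogenin diosgenin, and they ate it for 4 weeks. Livers were taken at 13 weeks, RNA of 3 mice was pooled for each diet, and each pool was read by 1 Affymetrix array. No group carries a genetic change, the labels do not give the sex of the mice, and cages held 3 mice, so that cage and diet may coincide. Each diet therefore had 1 value per probe set, no p-value or error could be computed, and a gene called higher or lower below is so on the array of the diosgenin pool. Pairs of signals give the control first and diosgenin second.

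Heme is built from glycine and succinyl-CoA by a path that opens in the mitochondrion, runs through the cytosol and returns to the mitochondrion, where ferrochelatase inserts iron. In hepatocytes most of the heme goes into cytochrome P450 enzymes, and the first enzyme, Alas1, sets the pace and is held down by heme itself. Heme oxygenase opens the heme ring and releases iron, carbon monoxide and biliverdin, which biliverdin reductases turn into bilirubin for export into bile.

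Promoter sequence is shown for Alas1, because it sets the rate of the path, and for Cpox, because both of its bright probe sets gave lower signals. Cpox was thus picked from its values, and both Urod probe sets were lower as well. Sequences are from RefSeq on the GRCm38.p6 build, with windows for 7 of the 9 genes: Alas1, Alad, Uros, Urod, Cpox, Ppox and Blvrb. The promoters of Hmox1 and Fech were not analysed here. Each window runs 5′ to 3′ on the gene's strand from 250 bases before the annotated start to 50 bases after it. The capitals mark a match on either strand to GCGCATG, the core of the site of nuclear respiratory factor 1, in Alas1 (chr9:106247681-106247980, minus strand) and to GATAAG, the core of a GATA factor site, in Cpox (chr16:58669958-58670257, plus strand).
Alas1: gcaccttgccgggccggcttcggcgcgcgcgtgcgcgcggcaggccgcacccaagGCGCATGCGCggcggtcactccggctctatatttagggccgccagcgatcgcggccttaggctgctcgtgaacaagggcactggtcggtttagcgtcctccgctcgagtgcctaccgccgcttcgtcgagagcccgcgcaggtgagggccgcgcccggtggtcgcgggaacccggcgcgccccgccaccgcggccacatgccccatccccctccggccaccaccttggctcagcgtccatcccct
Cpox: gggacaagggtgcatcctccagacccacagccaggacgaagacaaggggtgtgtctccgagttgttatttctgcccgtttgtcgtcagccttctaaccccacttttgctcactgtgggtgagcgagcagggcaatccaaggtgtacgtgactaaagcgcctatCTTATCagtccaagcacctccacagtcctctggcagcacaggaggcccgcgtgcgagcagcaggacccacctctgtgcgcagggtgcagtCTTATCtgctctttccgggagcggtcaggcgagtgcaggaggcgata

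GCGCATG was found in 3.91% of all 32851 promoter windows and in 2 of the 11 windows of these 7 genes, both of Alas1. Alas1 has 2 annotated starts with overlapping windows, and the window shown is that of the downstream start. In it GCGCATG matched on both strands, 195 and 192 bases before the start, and the overlapping matches form 1 palindrome. The same palindrome begins at base 30 after the upstream start. GATAAG was found in 7.44% of all windows and in 2 of the 11, from Cpox and Uros. The E-box CACGTG, present in 7.15% of windows, was found in 4 of the 11, from Alad, Urod and Uros. The GC box GGGCGG, present in 35.7% of windows, was found in 7 of the 11, from 6 of the 7 genes. Neither the antioxidant response element TGACNNNGC, present in 12.4% of windows, nor the AP-1 site TGANTCA, present in 7.81% and able to overlap it, was found in a window of these 7 genes, which do not include Hmox1. All motifs were searched on both strands, they were chosen with the list of genes known, and a match describes letters, not binding.

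By brightest probe set, the 7 synthesis genes had log2 ratios from −0.27 to 0.09, and Hmox1 had the widest difference of the 9 genes. Read by the brightest probe set of each gene, 0 of the 9 were 1.5-fold or more apart, where 6.44% of the 9732 genes that passed the signal filter were, and 0 were 2-fold apart, where 1.41% were. Of their 15 probe sets over the filter 0 were 1.5-fold apart, against 7.25% of all named ones. With so few genes and probe sets, counts of 0 are near these shares. Of the 13 such probe sets of the synthesis genes, 1 was higher and 2 were lower by a log2 ratio of at least 0.32. Of all named ones 24.4% were that far apart in either direction. The median log2 ratio of the 9 genes was 0.0086, against −0.0053 for all 9732 genes, with 5 genes higher and 4 lower. All 9 genes passed the filter, which asks for a mean signal of 28.4 over both arrays, and 15 of their 20 probe sets did. The share of all genes 1.5-fold apart fell with brightness, from 14.3% at mean signals of 28.4 to 68.0 to 2.26% at 377 to 12266. Alas1, Alad, Urod, Cpox, Fech and Blvrb lay in the latter range. Shares of all genes given here and below are not matched for brightness.

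**Figure D1:**
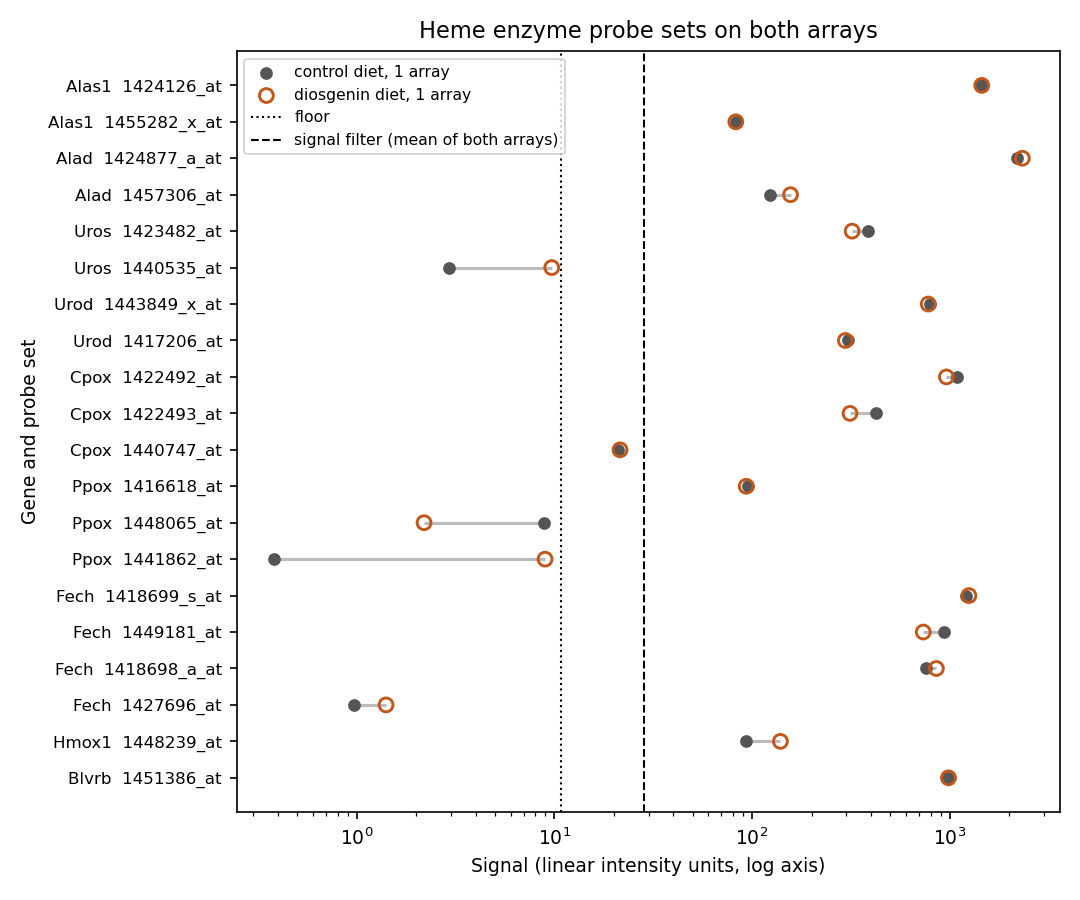
Signal of each of the 20 probe sets on the control array (filled grey) and the diosgenin array (open orange), on a log axis in linear intensity units, with the floor of 10.7 and the filter of 28.4 as vertical lines. The points of most probe sets above the filter nearly coincide, Hmox1 lies at 93.5 and 139, and 4 probe sets have both signals under the floor.

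Alas1, the first and rate-setting enzyme, gave signals of 1440 with the control diet and 1453 with diosgenin. The second Alas1 probe set, an _x_at set that can bind other transcripts, read 82.9 and 82.8. Both ratios were near equality, at log2 values of 0.01 and −0.0028, and 94.9% of all genes had a ratio at least as far from 0 as the brighter one. The enzyme that sets the pace of heme synthesis was thus the synthesis gene with the smallest difference between the diets.

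Alad, which joins aminolevulinic acid into porphobilinogen, had signals of 2196 and 2332, a log2 ratio of 0.09. Its dimmer probe set read 123 and 157, 1.27-fold higher. Both Alad probe sets pointed the same way, but differed in size by 0.26 on the log2 scale.

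Uros, which closes the ring as uroporphyrinogen III, read 386 and 321, 1.20-fold lower. This was the lowest log2 ratio among the 9 genes read by their brightest probe set, at −0.27. Of all genes, 29.4% had a ratio at least as far from 0. The other Uros probe set had signals of 2.93 and 9.69, both under the floor of 10.7 below which signals have no order.

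Urod, which trims the side chains of the ring, read 797 and 779 by an _x_at probe set and 305 and 297 by a plain one. These gave log2 ratios of −0.03 and −0.04. Of the 5 genes with several probe sets above the filter, Urod and Alas1 had readings that differed least, by 0.0073 and 0.02 on the log2 scale.

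Cpox, the mitochondrial coproporphyrinogen oxidase, read 1087 and 963 by its brightest probe set and 425 and 313 by the next. Both were lower, 1.13-fold and 1.36-fold, and the second was the lowest ratio of all 15 probe sets above the filter, at −0.44. The remaining probe set, under the filter at 21.0 and 21.5, had a log2 ratio of 0.03. Cpox was thus lower by both readings above the filter, which differed by 0.27 on the log2 scale. Of all genes, 45.8% had a ratio at least as far from 0 as its brightest probe set. Of all named probe sets above the filter, 14.2% were at least as far from 0 as the second.

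Ppox, which oxidises protoporphyrinogen, read 95.6 and 93.4, a log2 ratio of −0.03. Its other probe sets, at 8.85 and 2.19 and at 0.381 and 8.97, were under the floor on both arrays and say nothing of its direction.

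Fech, the ferrochelatase that puts iron into the ring, was read in both directions. Its brightest probe set, an _s_at set shared between transcripts, gave 1205 and 1251. An _a_at set, which reads alternative transcripts of the gene, gave 758 and 856, 1.13-fold higher. The plain probe set gave 935 and 735, 1.27-fold lower. The log2 ratios were 0.05, 0.18 and −0.35, so that the sign of Fech depended on the probe set, and the fourth probe set was under the floor at 0.973 and 1.41. Among the 988 genes with 3 probe sets above the filter, 59.1% also had both signs, and 29.5% had a spread at least as wide.

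**Figure D2:**
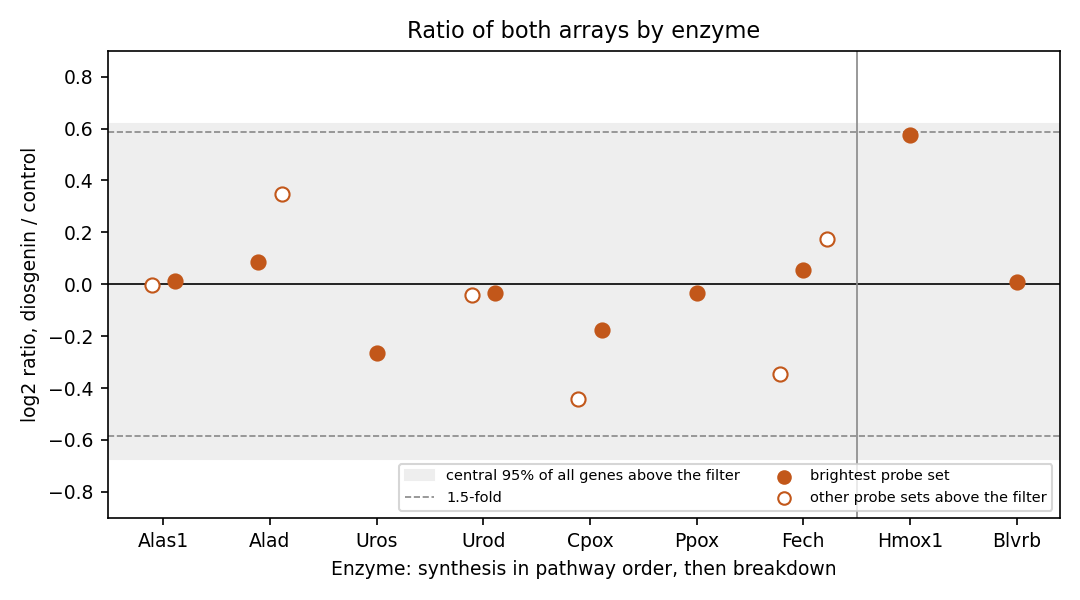
Log2 ratio (diosgenin over control) of the 15 probe sets above the filter, by enzyme in pathway order, with filled points for the brightest probe set of a gene. The grey band is the central 95% of all 9732 genes, from −0.67 to 0.62, and every point lies inside it and inside the dashed lines at 1.5-fold.

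Hmox1, the inducible heme oxygenase, read 93.5 with the control diet and 139 with diosgenin, 1.49-fold higher, just under the 1.5-fold line. Its log2 ratio of 0.57 was exceeded by 2.96% of all genes. It has 1 probe set, so no second reading exists on the array. At its brightness, mean signals of 68.0 to 151, the central 95% of genes ran from −0.63 to 0.62, and Hmox1 lay inside that range.

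Blvrb, a cytosolic reductase of biliverdin and flavins, read 980 and 986, a log2 ratio of 0.0086. The breakdown arm therefore held the widest difference of the 9 genes and 1 of the narrowest.

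**Figure D3:**
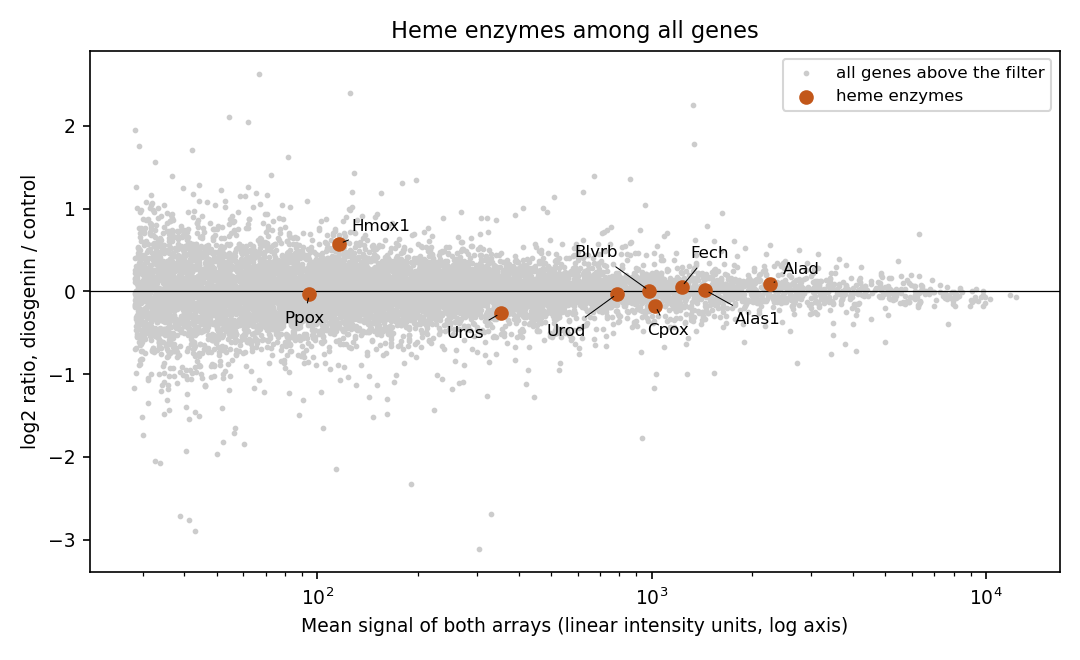
Log2 ratio against the mean signal of both arrays (log axis) for the 9732 genes above the filter, with the 9 heme enzymes in orange. Hmox1 and Ppox have mean signals of 116 and 94.5, a range in which all genes spread more widely than they do among the brightest genes.

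By arm, 3 of the 7 synthesis genes were higher, 4 were lower, and their log2 ratios ran from −0.27 to 0.09 around a median of −0.03. The 4 mitochondrial enzymes had a median of −0.0098 and the 3 cytosolic ones −0.03. A looser line was a log2 ratio of 0.32 in either direction. Of the 9 genes 1 was past it, Hmox1, or 11.1%, where 22.4% of all genes were. At mean signals of 377 to 12266, where Alas1, Alad, Urod, Cpox, Fech and Blvrb lie, 10.4% of genes were. At 151 to 377, where Uros lies, 15.5% were, and at 68.0 to 151, where Hmox1 and Ppox lie, 24.3%. A share matched for the brightness of all 9 was not tested. Among the 15 probe sets above the filter 4 were past that line, 1 each of Alad, Cpox, Fech and Hmox1, or 26.7%, against 24.4% of the 16259 named probe sets above the filter. Without _s_at, _x_at and _a_at probe sets 3 of the 9 genes were past it, Alad, Fech and Hmox1, or 33.3%, against 23.9% of all genes so read, so the count depended on the choice of probe set. Between probe sets of a gene, the standard deviation of log2 ratios was 0.28 over 4079 genes. Of the 9 heme enzymes 8 had a ratio smaller than that in size, and so did 72.4% of all genes.

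Genes that supply the path with substrates and carry its intermediates mostly had small ratios by their brightest probe sets. All 15 genes of this list that the array names were above the filter. Of these 9 were higher and 6 lower, around a median of 0.04. The exception was Tmem14c, a mitochondrial membrane protein needed to bring protoporphyrinogen to its oxidase, at 558 and 956, 1.71-fold higher. It was read by 1 _a_at probe set and exceeded by 1.27% of all genes. It was also the only 1 of the 15 past 1.5-fold in either direction, where 6.44% of all genes were.

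Slc11a2, the iron transporter DMT1, was 1.31-fold lower by its brightest probe set, at 180 and 137, but its 4 probe sets ran from −0.39 to 0.58. Slc25a39, a mitochondrial carrier, was 1.14-fold lower at 6680 and 5875, by an _x_at set among 4 sets with both signs. Alas2, the erythroid form of the first enzyme, read 1309 and 1123, a log2 ratio of −0.22. Of 10 erythroid markers 5 were named by a probe set with 1 gene symbol. Above the filter were 2: Alas2 itself and the erythroid transcription factor Klf1 at 43.4 and 59.98. The globin genes Hbb-b1 and Hbb-bs had no such probe set, so globin was read by Hba-a1 alone. Slc4a1, the anion exchanger of red cells, read 14.7 and 11.8, near the floor, and the globin gene Hba-a1 10.3, under the floor, and 17.0, the opposite direction. Epb42 was under the floor on both arrays.

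Partners of the breakdown arm had 6 of 9 genes higher and 3 lower, with a median of 0.03, where 49.0% of all genes were higher. Hmox2, the constitutive heme oxygenase, read 379 and 458, 1.21-fold higher, and Abcc3, a basolateral export pump, 721 and 838, 1.16-fold higher. Abcc2, the canalicular pump that exports conjugated bilirubin, read 203 and 128, 1.58-fold lower, by 1 _s_at set that can bind several transcripts, and is uncertain. Cyb5r3, a reductase of cytochrome b5, was at a log2 ratio of −0.09 with probe sets of both signs. Blvra, the main biliverdin reductase of adult liver, named here after its values were seen, read 202 and 214.

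Carriers and receptors of heme had 3 genes higher and 7 lower, a median of −0.06 and 0 past 1.5-fold, where 6.44% of all genes were. Cd163, the receptor for hemoglobin bound to haptoglobin, read 105 and 82.0, 1.28-fold lower. The transporter Flvcr2 read 28.3 and 34.9, Lrp1, the receptor for hemopexin with bound heme, 988 and 1115, and the heme binding protein Hebp1 2007 and 2208. These 3 were the higher ones, by 1.23-fold, 1.13-fold and 1.10-fold. Flvcr2 passed the filter only through its signal with diosgenin.

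Regulators that sense heme or control these enzymes had 11 of 15 genes higher and a median of 0.12, where 49.0% of all genes were higher. Ppargc1a, the coactivator that raises Alas1 in fasting liver, read 38.7 and 70.9, 1.83-fold higher, and its second probe set gave a log2 ratio of 0.54. Nr1d1, a heme-binding nuclear receptor and repressor of the clock, read 98.3 and 160, 1.63-fold higher, and its relative Nr1d2 540 and 729, 1.35-fold higher. Mafk, a small partner of BACH1 and NRF2, read 32.0 and 43.0, 1.34-fold higher. Ppargc1a and Nr1d1 were the 2 of 15 genes past 1.5-fold. Of all genes 6.44% were in either direction, and 2.84% were higher by that much. At the brightness of Ppargc1a, mean signals of 28.4 to 68.0, 14.3% of genes were 1.5-fold apart in either direction. At that of Nr1d1, 68.0 to 151, 6.25% were. Whether the signals of these regulators bear on Alas1 was not tested.

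Bach1, the repressor of Hmox1 that heme releases, and Nfe2l2 were named after their values were seen. The Bach1 probe sets read 214 and 275 and 32.0 and 33.8, log2 ratios of 0.36 and 0.08. Nfe2l2, which encodes the activator NRF2, read 458 and 522.

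Other targets of NRF2, read by their brightest probe sets, had smaller ratios than Hmox1. Among the 9 that passed the filter, 5 were higher and 4 lower, around a median of 0.02. Of these 9, 0 had a log2 ratio beyond 0.32 in size, where 22.4% of all genes had. All of them but Nqo1 and Srxn1 had mean signals in the range of 377 to 12266, where 10.4% of genes had. Dimmer or second probe sets of 4 of the 9 targets were past 0.32 in size. They gave 0.53 for Txnrd1, −0.50 for Gsr, −0.45 for Srxn1 and 0.37 for Mgst1. The Txnrd1 set passed the filter only through its signal with diosgenin, at 26.7 and 38.4. Nqo1, a quinone reductase, read 48.4 and 41.3, 1.17-fold lower, and Srxn1, sulfiredoxin, 205 and 183, 1.12-fold lower with probe sets of both signs. Gclc, the catalytic subunit of glutathione synthesis, was 1.11-fold higher at 2702 and 3005. Mgst1, a microsomal glutathione transferase, was 1.08-fold lower at 9372 and 8694. Its other probe set, higher at 28.6 and 36.9, lay close to the filter.

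Among 20 enzymes that carry heme, 9 were higher and 11 lower, around a median of −0.01. Cyp7a1 of bile acid synthesis, at 631 and 261, and Cyp3a13, at 379 and 869, were the 2 past 1.5-fold, in opposite directions. Of all genes 6.44% were that far apart. Cyp51, the lanosterol demethylase, was 1.43-fold higher and Cybb, the heme subunit of the phagocyte oxidase, 1.19-fold higher.

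**Figure D4:**
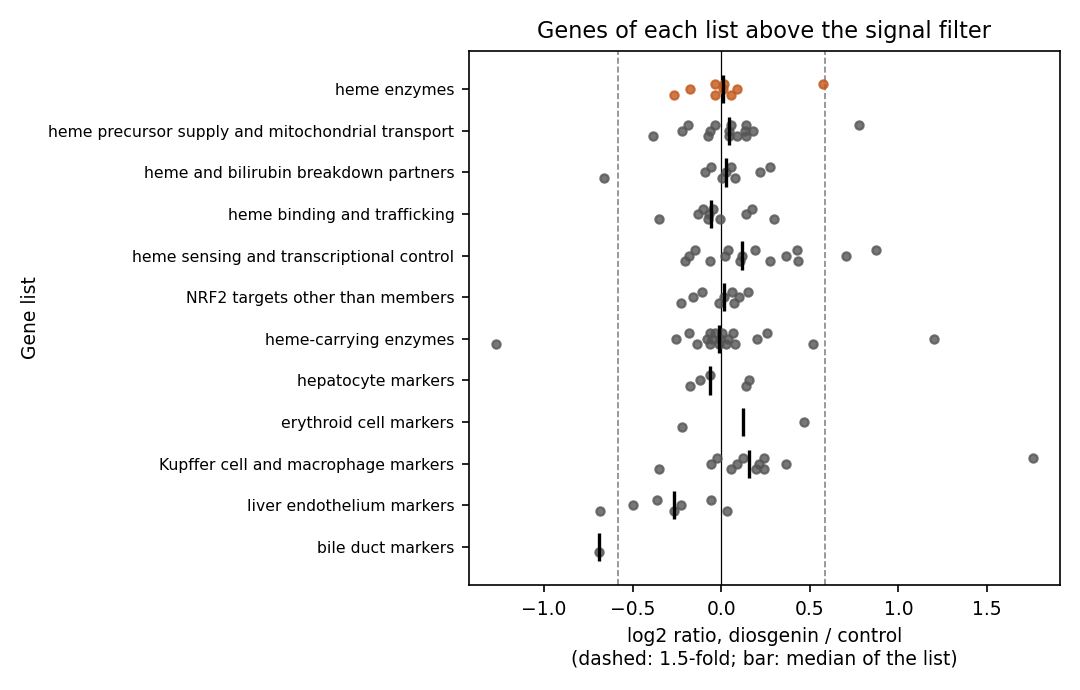
Log2 ratio of the genes above the filter in each list, with 1 point per gene, a bar at the median of the list and dashed lines at 1.5-fold. The heme enzymes lie around 0 with Hmox1 apart at 0.57, Tmem14c is the high point of the supply list, and the endothelium markers lie mostly below 0.

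Hmox1 is also made by Kupffer cells, the resident macrophages of the liver, so the markers of other cell types are given beside it. All 12 Kupffer cell and macrophage markers passed the filter. Of these 9 were higher and 3 lower, where 49.0% of all genes were higher. Their median was 0.16, and their summed signals were 2880 and 3174. Marco, which passed the filter only through its signal with diosgenin, read 13.3 and 45.1, Clec4f 341 and 439, Cd163 105 and 82.0 and C1qa 268 and 318. Their part in the Hmox1 result was not tested, and in pooled tissue more cells of a type and more RNA per cell cannot be told apart.

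Hepatocyte markers, which define the tissue, were bright for 4 of the 5 named, with sums of 37518 and 35641 and a median of −0.07. Alb read 9517 and 8429, Ttr 9832 and 9041, Cps1 5532 and 6085 and Ass1 89.7 and 99.9. Endothelium markers had 6 of 7 lower, where 49.0% of all genes were higher, with a median of −0.27 and sums of 1557 and 1147. They were led by Clec4g at 745 and 464, Lyve1 at 128 and 90.5, Stab1 at 129 and 100.3 and Stab2 at 291 and 242. Of the bile duct markers Sox9 alone passed the filter, at 42.0 and 26.1, and only through its signal with the control diet. Of 6 neutrophil markers none passed, with S100a8 at 19.4 and 15.7. Their part in the values of the heme enzymes was not tested.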

How the data were processed

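Liver RNA pooled from 3 mice per diet was read on 1 Affymetrix array each, 2 arrays in all. The deposited values are intensities on a linear scale, 1 per probe set. Per the submitters' processing notes the software was GCOS. Its version, how probes were summarised, the scaling target and the detection calls: not given in the sources used here. The 2% trimmed mean was 96.9 on both arrays, which is a common global scaling.

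Signals under 10.7, the 40th percentile of both arrays, were set to that floor before log2. The probe set with the brightest mean over both arrays stood for its gene, which was used if this mean was at least 28.4 (60th percentile of probe sets). The value is the log2 ratio of diosgenin over control. With 1 array per diet there is no test, and the number of arrays limits the precision. Array annotation named 34958 probe sets by 1 symbol, and all 9 genes matched the RefSeq table by gene identifier. From each other list the 4 genes with the largest absolute ratio above the filter were named, and exceptions are stated. The heme enzymes and the lists were chosen with earlier results of these data known. Genes with a pattern like that of an enzyme were not sought, because 2 arrays give 1 ratio per gene. The procedure was run on simulated arrays with known fold changes. That run checked the calculation and could not measure the spread between mice or pools. Alternatives covered the floor, a pseudocount, the filter, centring, quantile normalization, the choice of probe set and the threshold. Python 3.11.15, numpy 2.4.6 and pandas 2.3.3 were used.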

Additional observations from a re-analysis of the deposited data

How the results depend on the processing

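No paired analysis was possible because each diet had 1 array. The count of 0 heme enzymes at least 1.5-fold apart was also 0 with every alternative floor, pseudocount, filter, normalization and choice of probe set, and at 2-fold, and was 1, Hmox1, with the lowest threshold, a log2 ratio of 0.32 in size. The median log2 ratio of the 9 genes ran from −0.03, without _s_at, _x_at and _a_at probe sets, to 0.01, centred on the median ratio of all genes. Hmox1 was between 1.42-fold higher, with a pseudocount of 16, and 1.49-fold higher. Read by their brightest probe sets, the 9 genes lay above every floor and filter used, so these settings could not move their ratios. Centring shifted all genes alike, so mainly the choice of probe set could move a ratio far. Of 81 gene ratios under alternatives 80 moved by less than 0.28, the standard deviation between probe sets of a gene. The exception was Fech, whose log2 ratio was −0.35 without _s_at, _x_at and _a_at probe sets. It alone took the opposite sign, and 3 genes were then past a log2 ratio of 0.32 in size. The spread between mice and between pools is unknown.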
